A study of Mus musculus with 6 samples.

Results

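Molecular chaperones of the endoplasmic reticulum (ER), the cytosol and the mitochondrial matrix were followed in mouse embryonic fibroblasts lacking Rap1, the shelterin subunit at telomeres encoded by Terf2ip. The set held 37 genes, chosen by name. Their probes were found through the RefSeq accessions printed on the arrays, and the brightest probe of each gene over all arrays was used. A probe was matched to 35 genes, 61 probes in all, and Pdia3 and Dnajb11 were not analysed here. All 35 chosen probes were well above background on all 6 arrays, so the filter on dim probes removed none of them, and they stood among 19652 features tested in the whole series. RNA came from 3 Rap1 knockout samples and 3 wild-type samples, each on its own one-colour (Cy3) Agilent array. Both groups had received the SV40 large T antigen, which inactivates p53 and the pocket proteins, and Cre recombinase, and both were kept in medium with puromycin. In the knockout design Cre removes the floxed exon 3 of Terf2ip. The sources used here do not say whether the wild-type cells carried floxed alleles, how old the embryos were, or whether each replicate had its own embryo or culture. The p-values therefore cover the spread among these 6 samples, which may be technical.

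Chaperones bind unfolded protein and let it go again in cycles driven by ATP or by partner proteins. In the ER, Hspa5 (BiP) holds nascent secretory proteins, calreticulin and calnexin hold glycoproteins, and disulfide isomerases form their disulfide bonds. When unfolded protein accumulates there, the sensors ATF6, IRE1 and PERK raise these genes together in the unfolded protein response. In the cytosol, heat shock factor 1 raises HSP70, HSP90, HSP110, J-domain and small heat shock proteins upon heat or proteotoxic stress, while the TRiC chaperonin folds actin and tubulin. Fibroblasts that secrete collagen rely heavily on the ER branch.

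The regulatory sequences of both branches are shown first, since they let a reader see which of the genes measured below share an exact match to a known promoter element. RefSeq promoter windows (assembly GRCm38.p6, 250 bases before to 50 bases after the start) were available for 29 of the 37 genes. The ER stress response element, the site of ATF6 with NF-Y, was searched on both strands as CCAAT, 9 bases of any kind (N) and CCACG. It was matched in 7 of these 29 genes (24.1%), against 37 of 27025 genes with a window (0.137%). All 7 encode ER proteins. In the lines below, capitals mark the fixed letters of the element, and 5 bases stand on each side.
Hspa5, chr2:34772020-34772048, plus strand: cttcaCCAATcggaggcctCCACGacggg
Calr, chr8:84847070-84847098, plus strand: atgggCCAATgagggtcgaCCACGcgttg
Canx, chr11:50325795-50325823, minus strand: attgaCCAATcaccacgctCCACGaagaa
Hsp90b1 nearer site, chr10:86705528-86705556, plus strand: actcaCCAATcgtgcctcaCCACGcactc
Hsp90b1 farther site, chr10:86705633-86705661, minus strand: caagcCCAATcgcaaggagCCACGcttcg
Pdia6, chr12:17266486-17266514, plus strand: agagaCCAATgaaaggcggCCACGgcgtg
Dnajc3, chr14:118937822-118937850, plus strand: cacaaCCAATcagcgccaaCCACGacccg
Creld2, chr15:88819515-88819543, minus strand: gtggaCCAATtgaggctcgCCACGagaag
The element ended 47 bases before the start in Hspa5 and between 80 and 194 bases before it in the other 6 genes. The heat shock element, the site of heat shock factor 1, was searched on both strands as GAA, TTC and GAA with 2 bases of any kind between each. It was matched in 3 of the 29 genes (10.3%), against 0.662% of all genes with a window. Hspd1 and Hspe1 are neighbours, and the same match lies in the windows of both. A second match on the opposite strand overlaps it. The Hsph1 match lies past the start, at bases 16 to 28 in 1 window of the gene and 37 to 49 in another.
Hspd1 and Hspe1, chr1:55088059-55088081, plus strand: ttctaGAAccTTCcgGAAggccc
Hsph1, chr5:149636283-149636305, plus strand: gaggaGAActTTCcaGAAtctgc
The shorter UPRE motif TGACGTGG, a site of XBP1 and ATF6, had 0 matches in the 29 windows and occurred in 0.714% of genes. These matches describe letters in the windows, and binding was not measured. The search took exact spellings only, so a gene without a match may still hold a variant of an element or one outside its window.

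Some facts of the whole series bear on every value below. Between 61.6% and 67% of probes were well above background per array. Terf2ip, which checks the labels, read −7.91, −9.08 and −8.11 in the knockout samples, none of them well above background, and −1.75, −1.65 and −1.81 on the wild-type arrays (log2 signal relative to the 75th percentile of each array, the scale of all levels given here). It was at least 38.3-fold lower in knockout cells (limma adjusted p = 0.00792). The adjusted p was 0.0561 to 0.0746 when knockout array 1 or 3 or wild-type array 2 or 3 was left out. Terf2ip and 1 transcript without a symbol (probe A_52_P381806) were the only features past an adjusted p of 0.05 (0.0102% of 19652), both lower. Wild-type arrays 2 and 3 were nearly alike, with an SD of 0.25 for their log2 difference over all features, against 0.83 to 1.25 for every other pair. The arrays lay on 2 slides, scanned in 1 session each: slide 1 held array 1 of each group, and slide 2 held arrays 2 and 3 of each. Of 11 fibroblast markers, 10 were well above background on all arrays (Lum was not), and their summed signal was 326 to 572 times the 75th percentile in knockout and 609 to 666 times in wild-type cells. The fibroblast markers split on knockout array 1. Dcn (−5.47), Lum (−9.08), Thy1 (−2.22) and Pdgfra (−1.48) had their lowest values there, Pdgfrb had its highest (4.56), and the other 6 markers, collagens and Vim among them, lay within the range of the other arrays. Of 6 epithelial markers, 5 were well above background on all arrays, with sums of 4.04 to 13 in knockout and 2.09 to 3.11 in wild-type cells. Krt18 made up most of these sums, with a difference of 1.53 (SE 0.48), while Epcam was at 0.86 (SE 1.01), Krt8 at −1.74 (SE 0.72), Krt5 at −0.07 and Krt14 at −0.09. The blood markers Ptprc, Adgre1 and Itgam, the endothelial markers Pecam1 and Cdh5 and the muscle markers Myod1 and Myog were not well above background on any array. Kdr of endothelium, Tnnt2 of muscle, and Sox2 and Tubb3 of neural or pluripotent cells were so on all 6. The part of these marker levels in the chaperone values was not tested.

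No chaperone gene passed the test between knockout and wild-type cells: 0 of 35 rose and 0 fell (limma, Benjamini-Hochberg over all features, smallest adjusted p = 0.469). Here and below, rose and fell mean past an adjusted p of 0.05, as were 2 of 19652 features (0.0102%). In simulated sets of this comparison 1.18% of log2 changes of 1 were recovered, so a count of 0 does not show unchanged genes. The differences ran from −0.89 for Dnajb9 to 0.96 for Hspb1 (log2, knockout minus wild type), and 0 of 35 reached 2-fold, against 10.2% of all features. This count depends on the processing. With scaling by the array median, Hspb1 (1.06) and Hspb8 (1.04) passed 2-fold. Without wild-type array 1, Dnajb9 (−1.1), Hspb1 (1.08), Hspb8 (1.35) and Cryab (1.31) did so. Of the 35, 24 lay above 0 and 11 below (68.6% above, against 55.4% of all features), with a median of 0.14 against 0.07 for all features. After normexp correction with quantile normalisation these medians were 0.05 and 0.03. An unadjusted p under 0.05 was reached by 2 genes, Dnajb9 and Hspa8, which is 5.71% of them, against 10.3% of all features. Dnajb9 was lower, as were 4.66% of all features at that p, and Hspa8 higher, as were 5.61%. The 3 knockout arrays lay entirely above or below the 3 wild-type arrays for 7 genes (20%), 4 higher and 3 lower, against 17.3% of all features (11.4% higher, 5.89% lower). The share of genes without overlap is near that of the whole array. The split by direction moved with the scaling. After normexp correction with quantile normalisation it was 1 higher and 3 lower. With scaling by the array median it was 5 higher and 1 lower. The 95% intervals of 18 genes lay within 2-fold in both directions, and those of the other 17 do not exclude a difference of 2-fold or more. In these bulk samples a smaller share of cells of a type and less RNA per cell cannot be told apart.

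**Figure D1:**
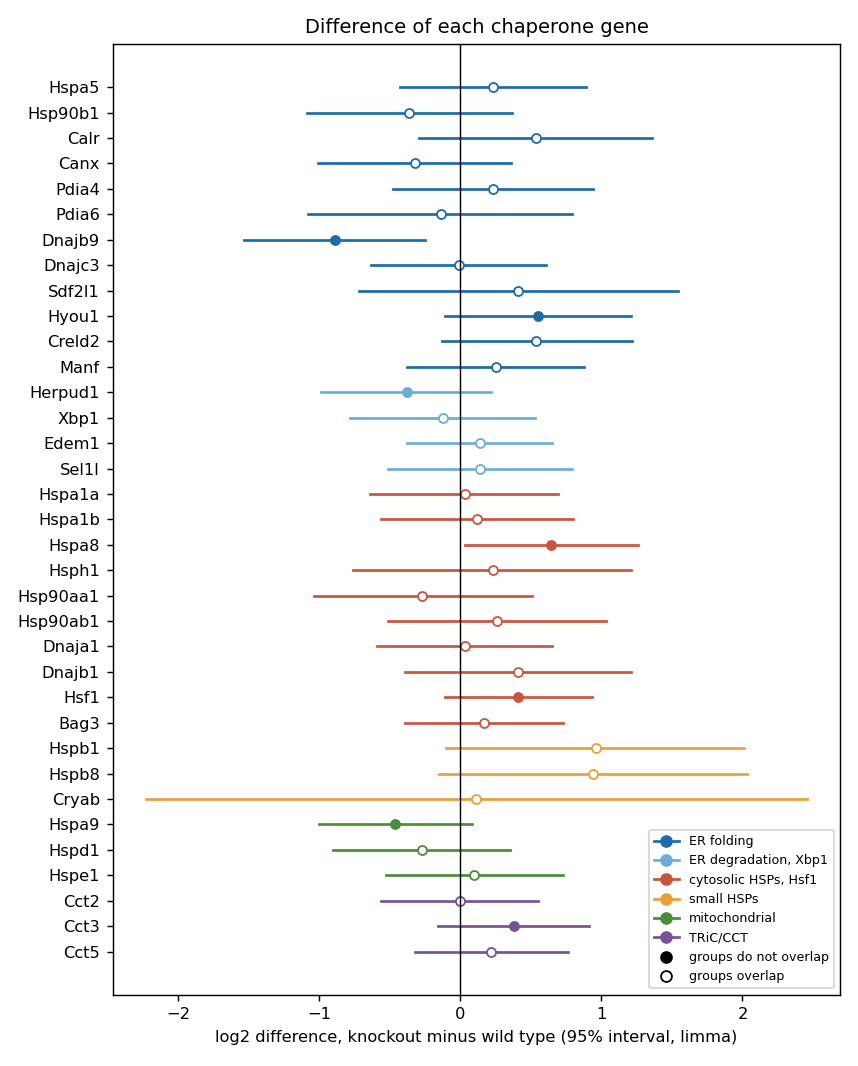
Log2 difference (knockout minus wild type, x axis) of the 35 chaperone genes with its 95% interval from limma, coloured by role; filled points mark genes whose 2 groups of 3 arrays do not overlap. The interval excludes 0 for Dnajb9 (lower) and Hspa8 (higher) before adjustment, and that of Cryab is the widest. These intervals count the near-alike wild-type arrays 2 and 3 separately. With that pair averaged the unadjusted p was 0.0632 for Dnajb9 and 0.126 for Hspa8 (limma).

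Of the 12 ER folding genes measured, 0 rose and 0 fell, 7 had a difference above 0 and 5 below, and their median was 0.23. Without knockout array 1 that median was −0.04, on slide 2 it was −0.03, and after normexp correction with quantile normalisation it was 0.07. A single array, knockout array 1, gave the highest of the 6 values for 9 of the 12 genes, against 30.8% of all features. Hspa5, the HSP70 of the ER, read 6.56, 5.71 and 6.01 on the knockout arrays and 5.87, 5.78 and 5.93 on the wild-type arrays. Only knockout array 1 stood above the wild-type range by more than 0.1, and the groups overlapped. Its difference was 0.23 (SE 0.28, limma adjusted p = 0.709), with 0.69 on slide 1 and 0.01 on slide 2. Sdf2l1, a partner of ER J-domain proteins, read 2.48, 0.57 and 1.42 in knockout cells and 1.11, 0.95 and 1.18 in wild-type cells. Its knockout arrays held both the highest and the lowest value. Calr, the lectin chaperone calreticulin, read 5.77, 5.10 and 4.76 in knockout and 5.10, 4.38 and 4.54 in wild-type cells, a difference of 0.54 (SE 0.35). Pdia6, a disulfide isomerase that acts with Hspa5, read 6.42, 5.63 and 4.98 in knockout and 5.55, 5.90 and 6.01 in wild-type cells. Knockout array 1 was again highest, and knockout array 3 lowest, so the difference was −0.14 (SE 0.39). The isomerase Pdia4 and the secreted ER stress factor Manf also peaked on knockout array 1 and differed by 0.23 (SE 0.30) and 0.25 (SE 0.27).

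Calr, Hyou1 and Creld2 were the ER folding genes that lay at least 0.4 higher in knockout cells on both slides. Without knockout array 1 their differences were 0.25 for Calr, 0.32 for Hyou1 and 0.34 for Creld2. Hyou1, the HSP110-type partner that releases nucleotide from Hspa5, read 3.08, 2.42 and 2.35 in knockout cells and 2.27, 1.99 and 1.95 in wild-type cells. The lowest knockout array exceeded the highest wild-type array, and the difference was 0.55 (SE 0.28, 95% interval −0.11 to 1.21, limma adjusted p = 0.504), 0.81 on slide 1 and 0.42 on slide 2. Creld2, an ER stress-induced protein with disulfide isomerase activity, read 5.17, 4.50 and 4.63 in knockout and 4.56, 4.03 and 4.07 in wild-type cells. The groups met at knockout array 2 and wild-type array 1, and the difference was 0.54 (SE 0.28, limma adjusted p = 0.508).

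Dnajb9 lay lower in knockout cells. It encodes ERdj4, a J-domain protein of the ER that is a target of XBP1 and restrains the sensor IRE1. It read −0.91, −0.51 and −0.76 on the knockout arrays and −0.24, 0.42 and 0.32 on the wild-type arrays. Every knockout value lay below every wild-type value, a 1.85-fold lower mean in knockout cells (log2 difference −0.89, SE 0.27, 95% interval −1.53 to −0.25, limma adjusted p = 0.469). Its other 2 probes gave −0.87 and −0.81, and the difference was −0.66 on slide 1 and −1.0 on slide 2. Averaging the near-alike wild-type arrays first gave −0.79. Hsp90b1, the HSP90 of the ER, and Canx, the membrane lectin calnexin, had differences of −0.36 (SE 0.30) and −0.32 (SE 0.29), with overlapping groups and the same sign on every probe. The slides did not share a sign for Hsp90b1, with 0.29 on slide 1 and −0.68 on slide 2. Dnajc3, an inhibitor of PERK, was at −0.01 (SE 0.26), and its 4 probes did not share a sign.

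The 7 genes with an ER stress response element in their window had differences of both signs. Hspa5, Calr and Creld2 lay above 0, while Hsp90b1, Canx, Pdia6 and Dnajc3 lay below, with a median of −0.01 (−0.21 without knockout array 1). Knockout array 1 was the highest array for 5 of the 7 and for 11 of the 20 measured genes with a window and no match, so both shares lay above the 30.8% of all features.

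**Figure D2:**
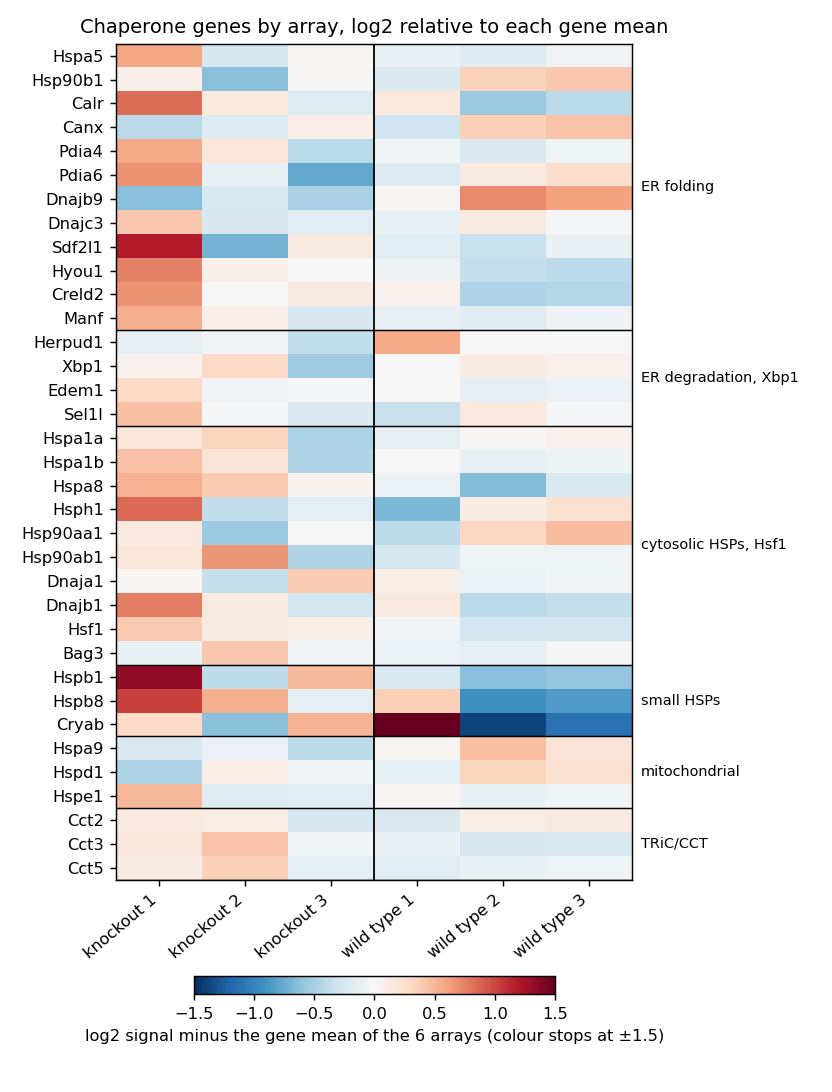
Log2 signal of each chaperone gene on each of the 6 arrays minus the mean of that gene over the 6 arrays, red above and blue below, with knockout arrays left of the vertical black line and roles at the right; colours stop at ±1.5. Knockout array 1 has the deepest red of the 6 arrays for 9 of the 12 ER folding genes, and wild-type array 1 has it for Cryab.

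The ER degradation genes and Xbp1 were closer together. Herpud1, a membrane protein of the ubiquitin ligase complex that clears misfolded ER proteins, read 2.88, 2.98 and 2.67 in knockout cells and 3.61, 3.04 and 3.03 in wild-type cells. The groups did not overlap, but only by 0.05 between knockout array 2 and wild-type array 3, and wild-type array 1 alone stood high. The difference was −0.38 (SE 0.26, limma adjusted p = 0.548), with −0.72 on slide 1, −0.21 on slide 2 and −0.19 without wild-type array 1. Xbp1, the transcription factor spliced by IRE1, was at −0.12 (SE 0.27), and its spliced form was not analysed here. Edem1, which directs misfolded glycoproteins to degradation, was at 0.14 (SE 0.22), and Sel1l, the adaptor of the ligase, at 0.14 (SE 0.27). Sel1l differed by 0.79 on slide 1 and −0.19 on slide 2. Of these 4 genes 0 rose and 0 fell, and the group median of 0.01 was −0.12 without knockout array 1 and −0.08 without wild-type array 1 or after normexp correction with quantile normalisation.

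Of the 10 cytosolic genes, 9 had a difference above 0 and Hsp90aa1 below, with a median of 0.20, and 0 rose or fell. The median was 0.08 without knockout array 1 and 0.06 after normexp correction with quantile normalisation. Hspa8, the constitutive HSP70 (HSC70), read 6.82, 6.70 and 6.36 in knockout cells and 6.22, 5.66 and 6.08 in wild-type cells. The groups did not overlap, with a 1.56-fold higher mean (log2 difference 0.64, SE 0.26, 95% interval 0.03 to 1.26, limma adjusted p = 0.486). The difference was 0.61 on slide 1 and 0.66 on slide 2, although a second probe gave 0.33 with overlapping groups. Hsf1, the heat shock transcription factor, read 2.88, 2.62 and 2.58 in knockout and 2.44, 2.20 and 2.21 in wild-type cells. The groups did not overlap, the difference was 0.41 (SE 0.22, limma adjusted p = 0.511), and the second probe gave 0.43.

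None of the other 8 cytosolic genes separated the groups. Hspa1a and Hspa1b, the near-identical inducible HSP70 genes whose probes may read each other's transcripts, had differences of 0.03 (SE 0.28) and 0.12 (SE 0.28). Hsph1, the HSP110 of the cytosol, read 5.00, 3.78 and 4.0 in knockout cells and 3.47, 4.25 and 4.37 in wild-type cells. Knockout array 1 was highest and wild-type array 1 lowest, so the difference was 1.53 on slide 1, −0.42 on slide 2 and 0.23 overall (SE 0.41). Dnajb1, the stress-inducible J-domain partner of HSP70, differed by 0.41 (SE 0.33), and Dnaja1, another J-domain partner, by 0.03 (SE 0.26). The HSP90 pair lay on either side of 0, with the inducible Hsp90aa1 at −0.27 (SE 0.33) and the constitutive Hsp90ab1 at 0.26 (SE 0.32). Hsp90aa1 differed by 0.53 on slide 1 and −0.66 on slide 2. Bag3, the nucleotide exchange factor of HSP70 in selective autophagy, was at 0.17 (SE 0.23).

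The 3 small heat shock genes varied most among the arrays. Their median difference was 0.94, and 0.53 without knockout array 1. Hspb1 (HSP25 in mouse), which binds unfolding proteins and actin, read 4.10, 2.38 and 3.25 in knockout cells and 2.54, 2.14 and 2.19 in wild-type cells. Knockout arrays 1 and 3 exceeded every wild-type array while knockout array 2 did not, and the difference of 0.96 (SE 0.44, 95% interval −0.10 to 2.01, limma adjusted p = 0.497) was 0.53 without knockout array 1. Hspb8, the partner of Bag3, read 3.19, 2.69 and 2.02 in knockout cells and 2.52, 1.25 and 1.31 in wild-type cells. Wild-type array 1 lay inside the knockout range, and the difference was 0.94 (SE 0.46, limma adjusted p = 0.499), with 0.73 when the near-alike wild-type arrays 2 and 3 were averaged. Cryab, alpha-B crystallin, read 0.22, −0.69 and 0.44 in knockout cells and 2.27, −1.45 and −1.19 in wild-type cells. Wild-type array 1 alone was high, which spread the gene over 3.72 log2 units, the widest range of the 35 genes. The difference of Cryab was 0.11 (SE 0.98), with −2.05 on slide 1, 1.19 on slide 2, 1.31 without wild-type array 1 and −0.48 with wild-type arrays 2 and 3 averaged. No direction can be given for Cryab. The muscle marker Tnnt2 was also high on wild-type array 1, at 1.13 against −6.62 to −2.66 on the other 5 arrays, and the summed signal of the 4 muscle markers was 0.023 to 0.172 in knockout and 0.0351 to 2.72 in wild-type cells. Their part in the Cryab values was not tested.

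**Figure D3:**
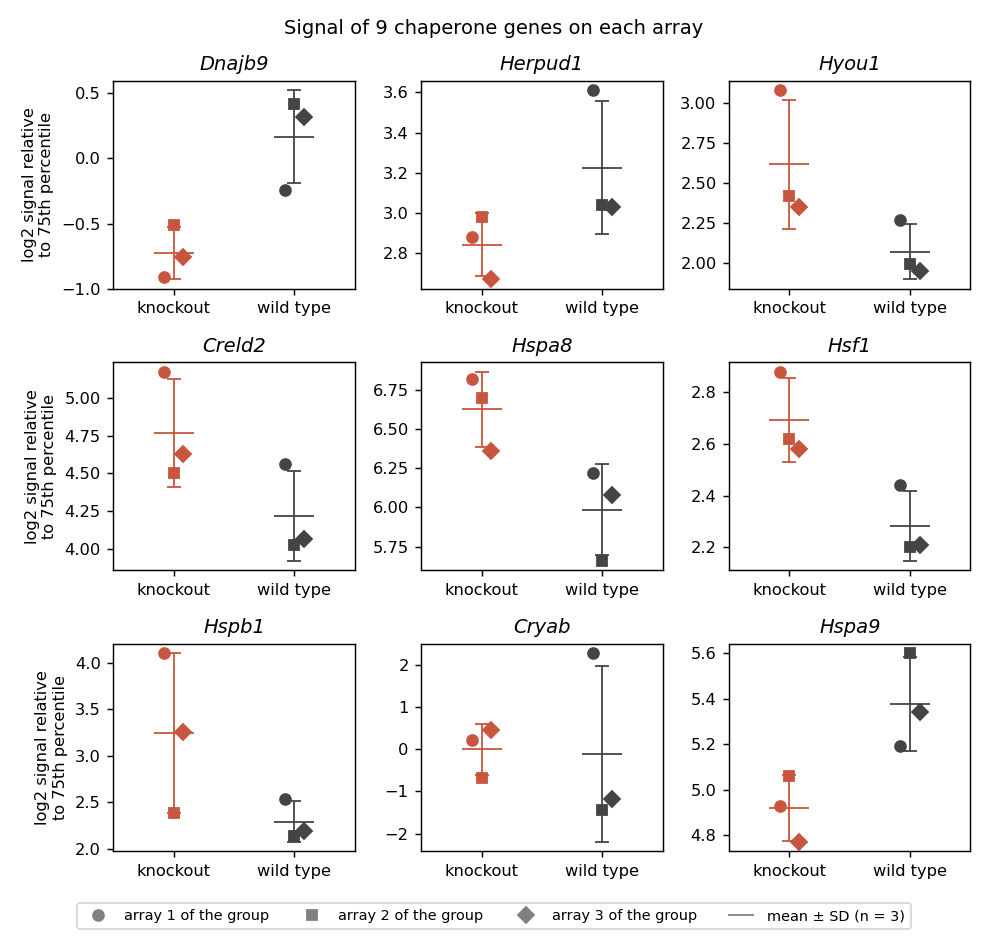
Log2 signal relative to the 75th percentile of the array (y axis, a separate scale per gene) for 9 chaperone genes, with knockout left and wild type right; markers give the array number, and bars give mean ± SD (n = 3). Dnajb9, Herpud1 and Hspa9 lie lower and Hyou1, Hspa8 and Hsf1 higher on every knockout array, while Creld2, Hspb1 and Cryab overlap.

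In the mitochondrial matrix Hspa9 (mortalin), the HSP70 that pulls proteins in through the inner membrane, read 4.93, 5.06 and 4.77 in knockout cells and 5.19, 5.60 and 5.34 in wild-type cells. Every knockout array lay below every wild-type array, the difference was −0.46 (SE 0.23, 95% interval −1.0 to 0.08, limma adjusted p = 0.500), and the second probe gave −0.64. The chaperonin Hspd1 (HSP60) and its lid Hspe1 (HSP10) share the heat shock element shown above. Hspd1 read 5.40, 5.97 and 5.83 in knockout cells and 5.72, 6.20 and 6.10 in wild-type cells, a difference of −0.27 (SE 0.26). Hspe1 read 4.57, 3.89 and 3.90 in knockout and 4.10, 3.97 and 4.0 in wild-type cells, a difference of 0.10 (SE 0.26). On knockout array 1 Hspd1 had its lowest and Hspe1 its highest value, and a direct test between the pair was not run. The difference of Hspe1 turned to −0.10 after normexp correction with quantile normalisation. The median of the 3 genes was −0.27, with −0.13 without knockout array 1, −0.42 without wild-type array 1 and −0.46 after that correction.

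The 3 measured subunits of TRiC, the ring that folds actin and tubulin, differed by 0.00 (SE 0.23) for Cct2, 0.38 (SE 0.23) for Cct3 and 0.22 (SE 0.23) for Cct5. Their median of 0.22 was 0.01 after normexp correction with quantile normalisation. Cct3 read 2.99, 3.25 and 2.78 in knockout cells and 2.72, 2.58 and 2.59 in wild-type cells, and its groups did not overlap (limma adjusted p = 0.525). They came close at knockout array 3 (2.78) and wild-type array 1 (2.72). The difference of Cct3 was 0.25 after normexp correction with quantile normalisation. Cct2 had the narrowest range of the 35 genes, 0.38 log2 units over the 6 arrays.

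Other genes of the same pathways gave a similar picture, with 0 of 83 measured past the threshold in either direction, 56 above 0 and 27 below, and a median of 0.12 (0.01 after normexp correction with quantile normalisation). Of 31 other ER stress and folding genes, 0 rose and 0 fell. Trib3, a pseudokinase induced by ATF4 and CHOP downstream of PERK, had the smallest p of them. It read 1.90, 1.90 and 2.40 in knockout cells and 3.11, 4.13 and 3.90 in wild-type cells, with no overlap and a difference of −1.65 on the log2 scale (SE 0.33, limma adjusted p = 0.295). Of 27 other cytosolic chaperones and co-chaperones, 20 lay above 0 and 7 below, with a median of 0.25 (0.16 without knockout array 1 and 0.07 after normexp correction), and Unc45a, a co-chaperone of HSP90 for myosin, had the smallest p at 0.56 (SE 0.25, limma adjusted p = 0.494). Of 12 other TRiC subunits and prefoldins, Pfdn5, a subunit of the prefoldin that hands actin and tubulin to TRiC, had the smallest p at 0.48 (SE 0.25). Of 13 other mitochondrial chaperones and proteases, Grpel1, the nucleotide exchange factor of Hspa9, had the smallest p at 0.49 (SE 0.25). The rest of these groups also had 0 genes past the threshold. The median of the other mitochondrial genes, 0.09, turned to −0.11 after normexp correction with quantile normalisation, and that of the other TRiC and prefoldin genes, 0.10, turned to −0.04.

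Across arrays, the chaperone genes, like all features, spread more within the knockout group than within the wild-type group. The SD over knockout arrays had a median of 0.39 and that over wild-type arrays a median of 0.19, against 0.43 and 0.25 for all features. The knockout SD was the larger for 27 of 35 genes (77.1%, against 71.4% of all features). The wild-type figure includes the 2 near-alike arrays. Knockout array 1 was the highest of the 6 for 20 of the 35 genes (57.1%), against 30.8% of all features, and the median gene lay 0.39 above its own mean there, against 0.09 for all features. On knockout arrays 2 and 3 the median gene lay at 0.01 and −0.15, and on the wild-type arrays at −0.09, −0.11 and −0.06. Without knockout array 1 the median difference of the 35 genes was 0.00, in place of 0.14. The median was 0.45 on slide 1, where 27 genes lay above 0, and 0.01 on slide 2, where 18 did. With the slide as a block, 7 genes (20%) had an unadjusted p under 0.05, against 17.7% of all features, and 0 passed after adjustment (limma).

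**Figure D4:**
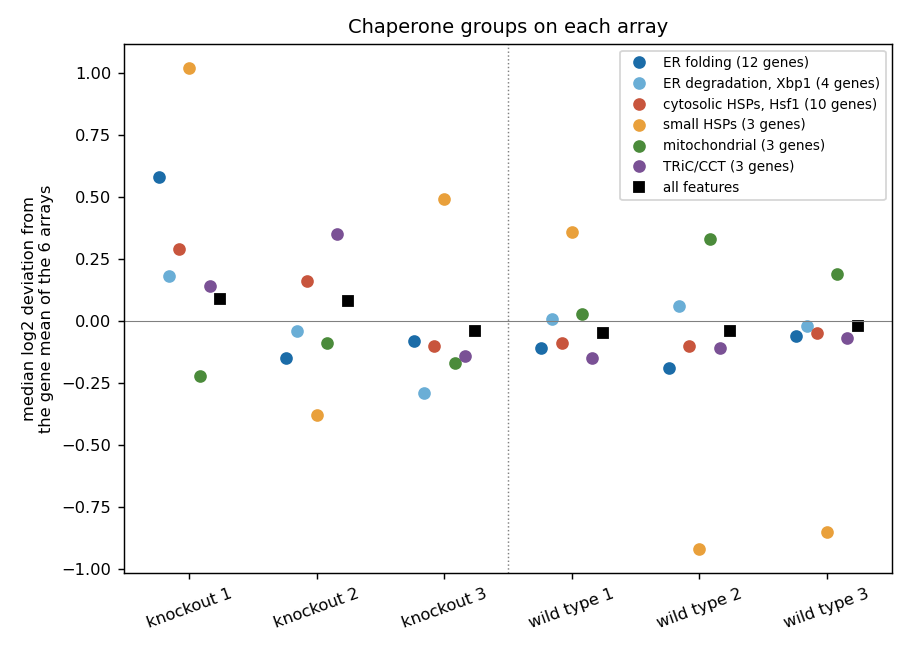
Median over the genes of each chaperone group of the log2 deviation from the gene mean of the 6 arrays (y axis), for each array (x axis, knockout left), with all 19652 features as black squares. The ER folding group stands at 0.58 on knockout array 1 and between −0.19 and −0.06 on the other 5 arrays.

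Further probes gave the same direction as the chosen probe in 16 of 26 cases. The other 10, from 8 genes, all had differences of at most 0.27 in size. More than 1 probe was measured for 19 genes. Of these, Dnajb9, Hsf1, Hspa9, Hsp90b1, Canx, Calr, Cryab, Dnajb1, Hsp90ab1, Hspa8 and Hspd1 kept their sign on every probe.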

How the data were processed

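Spot intensity was deposited as Agilent Feature Extraction (10.5.1.1) wrote it for each array, already background-subtracted and detrended within each array, per the file headers (mouse build mm8). The deposited value table holds log2 values normalised between arrays by the authors; the submitters' processing notes list limma. Its knockout columns 1, 2 and 3 followed scanner files 2, 3 and 1 of that group (r of 0.9995 or more over 23631 probes), which leaves the groups intact. Replicate numbers here are those of the scanner files.

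Of 45018 spots, 1639 controls and 74 to 120 outlier spots per array were left out; saturation occurred on none. Repeated spots were averaged to 41174 probes. Levels are log2 processed signal minus the 75th percentile of the array. Probes were kept where every array of either group had them well above background (25513), and the brightest probe of a gene was used. Gene names came from RefSeq accessions matched without versions to a GRCm38.p6 gene table (the files hold no gene name column). The table's own coordinates were not used, since the builds differ; promoter windows and their coordinates are RefSeq's, on GRCm38.p6.

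The 2 groups were compared with lmFit and eBayes from limma 3.58.1 under R 4.3.3 (2-sided, no block, Benjamini-Hochberg over 19652 features, threshold 0.05). The rule for named genes took every member, Terf2ip and, in each list of other chaperone genes, each gene past the threshold or else the one of smallest p; Hspb2 and Syvn1 were added after their values were seen. The members and lists were chosen with earlier results of these data known, and the promoter motifs after the values were seen. Normexp used the median spot signal (offset 50). On 10 simulated sets of this comparison (19652 features each), 1.18% of log2 changes of 1, 42.5% of 2 and 82.1% of 4 were recovered. Their noise was independent between arrays, with each gene's own SD within groups. They held no slide effect and no near-alike pair, so recovery in the real arrays may differ. The 6 arrays limit the precision. Alternatives are given in the closing section.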

Additional observations from a re-analysis of the deposited data

How the results depend on the processing

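No chaperone gene passed the threshold under any of the 17 alternatives run (limma, smallest adjusted p = 0.103), and 22 of 35 genes kept the sign of their difference in all of them. In some of these alternatives no sign could turn. The trended robust variance, the replicate block, the slide block and the changes of the filter left every chaperone difference as in the main fit. The deposited value table nearly repeated the differences after normexp with quantile normalisation. Slide 1 alone was not among these alternatives, and 20 of 35 genes had the same sign on both slides. Over all features the count past the threshold was 4 with the mean of a gene's probes, 303 on slide 2 alone, and 0 with probes above background on all arrays (1780 at an unadjusted p under 0.05), with the replicate block (2352), with the slide block (3482) and with the near-alike wild-type pair averaged (690); leaving out single arrays gave 0 to 64. The 64 (without wild-type array 1) and the 303 rest on fits whose wild type was that near-alike pair alone. Terf2ip missed the threshold at −6.63 with the replicate block (limma adjusted p = 0.177) and with the slide block (0.0625), and at −6.62 with the pair averaged (0.0651). Without single arrays it was −6.85 to −6.27, past the threshold in 2 of 6 fits. It was −2.62 after normexp with quantile normalisation and −2.64 in the deposited value table, past the threshold in both. These are measured differences and no bounds, since its knockout signal was not above background, and the filter on all arrays removes it. The median of the 35 genes ran from 0.00 to 0.28 without single arrays. Genes whose groups did not overlap numbered 4 after normexp with quantile normalisation (11.4%, against 16.9% of all features), 23 on slide 2 alone (65.7%, against 57.9%) and 7 to 18 without single arrays (20% to 51.4%, against 18.8% to 45.7%). The 4 after normexp were 1 higher and 3 lower. With scaling by the array median 6 genes did not overlap (17.1%, against 18% of all features), 5 higher and 1 lower. Scaling by the array median moved the median of all features to 0.17 and dropping the filter to −0.08, so differences near 0 have no settled direction. These turned: after normexp with quantile normalisation, and equally in the deposited value table, Dnaja1 (−0.16), Hspa1a (−0.13) and Hspe1 (−0.10); with median scaling Cct2 (0.10) and Dnajc3 (0.09); with probe means Dnajc3 (0.00); with wild-type arrays 2 and 3 averaged Cct2 (0.05), Cryab (−0.48) and Dnajc3 (0.02); on slide 2 alone Hspa1a (−0.12), Hspa1b (−0.03), Hspe1 (−0.09), Hsph1 (−0.42), Sdf2l1 (−0.07) and Sel1l (−0.19). Without single arrays the signs of 13 genes turned: Hspa1a (−0.13 to 0.27), Hsph1 (−0.14 to 0.46), Cct2 (−0.11 to 0.12), Cryab (−0.55 to 1.31), Dnaja1 (−0.15 to 0.22), Dnajc3 (−0.22 to 0.11), Hspa1b (−0.07 to 0.38), Hspe1 (−0.13 to 0.21), Sdf2l1 (−0.08 to 0.87), Sel1l (−0.05 to 0.28), Hsp90ab1 (−0.01 to 0.55), Pdia6 (−0.51 to 0.21) and Xbp1 (−0.30 to 0.11). The cause was not tested. Arrays of the same number deviated together at correlations of 0.01, 0.05 and −0.08, and 1 of 3 knockout arrays correlated best with its own number. No pairing by the labels' numbers was seen. With so few arrays per group and a near-alike wild-type pair, this check cannot exclude a pairing. The replicate block changed no call among the chaperones (0 of 35). Signal over background limits no chaperone here.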

Other observations

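Hspb2, a small heat shock gene that neighbours Cryab in the RefSeq gene order, and Syvn1, the ubiquitin ligase of the ER that works with Sel1l and Herpud1, were picked out after their values were seen. Hspb2 read −3.22, −1.18 and −1.97 on the knockout arrays and 0.95, −3.35 and −3.31 on the wild-type arrays. Like Cryab it was high on wild-type array 1, and its log2 difference was −0.22 (SE 1.21), with overlapping groups, −4.18 on slide 1 and 1.75 on slide 2. Syvn1 read 5.46, 4.86 and 4.60 in knockout cells and 4.66, 3.98 and 4.02 in wild-type cells. Its difference was 0.75 (SE 0.32, limma adjusted p = 0.492), 0.51 without knockout array 1, and Herpud1 was at −0.38. A direct test between them was not run.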
